A study of Mus musculus with 5 samples.

Results

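The unfolded protein response genes described here are a listed set of 10 genes that encode sensors, a transcription factor and chaperones of the endoplasmic reticulum (ER), taken on every probe set that the platform annotation gives exactly 1 symbol. Of the 10 genes, 9 had such a probe set, and together they had 10 probe sets among the 22180 genes so annotated. Pdia4, which encodes an ER disulfide isomerase, shared its probe set with a microRNA gene and was not analysed here. The arrays came from STING-/- mouse embryonic fibroblasts, labelled primary cells, in which the STING variant R284S had been put back. STING is the adaptor that passes the cytosolic DNA signal on to interferon induction, and R284S is a variant that signals without DNA. All groups carried both the deletion and the variant and were set apart by 9 hours of treatment. There was 1 array each for Compound C (an inhibitor of the energy sensor AMPK that also hits BMP receptors), doxorubicin (a topoisomerase II poison), GSK 690693 (an AKT inhibitor that also inhibits AMPK), tofacitinib (a JAK inhibitor) and vehicle. The series describes the treatments as AMPK inhibitors, so the question for each compound was how these transcripts stood against vehicle. The labels give neither the doses nor whether the cells were a pool or 1 clone.

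The unfolded protein response is set off when unfolded proteins build up in the ER. IRE1, the product of Ern1, cuts a short intron out of Xbp1 mRNA so that an active transcription factor is made. ATF6 travels to the Golgi and is cut free from the membrane there, and PERK, the product of Eif2ak3, phosphorylates eIF2 alpha and thereby favours translation of Atf4. The XBP1 and ATF6 factors act through ER stress response elements in the promoters of chaperone and degradation genes, and fibroblasts, which secrete collagen, use these chaperones constantly. STING itself resides in the ER membrane.

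Values are the deposited log2 signals, in which a difference of 0.585 is 1.5-fold and a difference of 1 is 2-fold. With 1 array per group no difference has a replicate check, an error or a p-value. The yardstick is the whole array: 12317 genes whose brightest value reached the median of its array were compared, and all 9 genes were among them. Levels of different genes are not set against each other, since probe sets differ in brightness for the same amount of RNA. All 9 fibroblast markers, among them Col1a1, Vim and Fn1, passed the same filter, and their mean log2 signal was 10.34 with Compound C, 10.50 with doxorubicin, 10.57 with GSK 690693, 10.53 with tofacitinib and 10.52 with vehicle. The leukocyte markers Ptprc and Adgre1, the epithelial marker Epcam and the plasma cell gene Jchain stayed below the filter on all 5 arrays. Other markers passed it: 2 of 5 for leukocytes, 3 of 4 for epithelium, 2 of 4 for endothelium and 2 of 3 for plasma cells. The epithelial ones were Krt8, Krt18 and Cdh1, and Krt8 read 6.13 with doxorubicin and 6.19 with vehicle. Cd68, also on the leukocyte list, read 7.63 with doxorubicin and 6.56 with vehicle, while that list's mean over 5 genes was 4.90 with doxorubicin and 4.58 with vehicle. The part of other cells in the doxorubicin results was not tested, and in bulk RNA fewer cells of a type and less RNA per cell cannot be told apart. Among the fibroblast markers, Pdgfrb was past 1.5-fold at −1.21 with Compound C and Col1a1 at −0.64 with doxorubicin. A second Vim probe set, not used in the means, read 9.65 with tofacitinib and 10.75 with vehicle. Its difference was −1.10, where the Vim probe set used differed by 0.04. Of the other markers at least 1.5-fold from vehicle, Sdc1 of the plasma cell list differed by 0.68 with doxorubicin, Kdr of the endothelial list by −0.66 with Compound C, and Csf1r, which reached the filter on the GSK 690693 array alone, by 0.59 there.

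The promoters of 4 genes are shown because they belong to the chaperones that stayed closest to vehicle and to the genes that differed most from it. RefSeq windows of 250 bases before the annotated start (GRCm38.p6) were found for 9 of the 10 listed genes, Pdia4 included and Atf6 not. They were searched on both strands for 4 motifs. These were the ER stress response element, written CCAAT, then 9 bases of any kind, then CCACG, its second form, written ATTGG, then 1 base, then CCACG, the unfolded protein response element TGACGTGG, and TGATGNAA, the element at which C/EBP and ATF factors bind together. The first form was present in 0.113% of all 32851 windows, the second in 0.03%, TGACGTGG in 0.563% and TGATGNAA in 3.452%. The elements share the letters CCACG, on one strand or the other, with the exception of TGATGNAA, and no matches overlapped in these genes. Capitals mark the matches, and each sequence reads 5′ to 3′ on the strand of its gene.
Hspa5, chr2:34771840-34772089, plus strand: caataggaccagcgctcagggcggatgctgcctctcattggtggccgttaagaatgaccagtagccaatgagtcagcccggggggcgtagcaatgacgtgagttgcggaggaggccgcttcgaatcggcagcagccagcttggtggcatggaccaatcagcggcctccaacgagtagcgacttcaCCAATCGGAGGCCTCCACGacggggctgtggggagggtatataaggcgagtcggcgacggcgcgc
Hsp90b1, chr10:86705445-86705694, minus strand: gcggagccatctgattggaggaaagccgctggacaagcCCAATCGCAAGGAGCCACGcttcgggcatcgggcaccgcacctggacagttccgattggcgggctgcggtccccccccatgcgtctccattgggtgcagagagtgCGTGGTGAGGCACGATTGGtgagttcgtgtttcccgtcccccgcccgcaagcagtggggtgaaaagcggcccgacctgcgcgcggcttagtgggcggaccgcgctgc
Herpud1, chr8:94386179-94386428, plus strand: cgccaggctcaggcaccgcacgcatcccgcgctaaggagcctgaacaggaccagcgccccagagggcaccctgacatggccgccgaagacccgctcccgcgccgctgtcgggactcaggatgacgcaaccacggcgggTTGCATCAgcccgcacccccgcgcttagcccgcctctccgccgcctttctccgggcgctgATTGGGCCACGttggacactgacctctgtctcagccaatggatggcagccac
Xbp1, chr11:5520391-5520640, plus strand: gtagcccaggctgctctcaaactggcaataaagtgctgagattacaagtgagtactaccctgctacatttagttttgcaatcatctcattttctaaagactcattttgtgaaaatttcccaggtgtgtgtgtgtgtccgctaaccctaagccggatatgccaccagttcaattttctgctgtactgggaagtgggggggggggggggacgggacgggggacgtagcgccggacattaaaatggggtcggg

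Hspa5 held 1 match to the first form, 65 to 47 bases before its start, and Hsp90b1 held 2, of which the one nearer the start lay on the opposite strand. Herpud1 held the second form, 52 to 42 bases before its start, and TGATGNAA on the opposite strand 112 to 105 bases before it. The windows of the other 6 genes, Xbp1 among them, held none of the 4 motifs in these exact letters, which says nothing about binding there or elsewhere. A match is a description of the sequence and was not tested for any part in the values that follow.

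Xbp1 was the sensor-side transcript that differed most from vehicle. Its log2 signal was 8.62 with Compound C, 7.91 with doxorubicin, 9.55 with GSK 690693, 9.62 with tofacitinib and 9.71 with vehicle. The Compound C and doxorubicin arrays were the low ones, and the 3 others lay within 0.16 of each other. The difference from vehicle was −1.09 with Compound C, where vehicle was 2.13-fold brighter, and −1.80 with doxorubicin, where vehicle was 3.48-fold brighter. Among the 12317 tested genes, 233 lay at or below the Xbp1 difference with Compound C and 144 with doxorubicin. The probe set gives 1 value for the gene, so the spliced and unspliced forms cannot be told apart and the activity of IRE1 was not measured.

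The sensor genes Ern1 and Atf6 stayed nearer to vehicle, unlike Eif2ak3, which is described with the wider list. Ern1, which encodes IRE1 alpha, read 8.12 with Compound C, 8.20 with doxorubicin, 8.32 with GSK 690693, 8.02 with tofacitinib and 7.98 with vehicle. Its largest difference, 0.34 with GSK 690693, was matched or passed by 13.11% of tested genes. Atf6 read 9.30 with Compound C, 9.37 with doxorubicin, 8.91 with GSK 690693, 8.96 with tofacitinib and 8.95 with vehicle. Its differences of 0.35 with Compound C and 0.42 with doxorubicin were on the higher side of vehicle and under 1.5-fold. On both arrays where Xbp1 was more than 1.5-fold below vehicle, Ern1 and Atf6 read above vehicle.

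**Figure D1:**
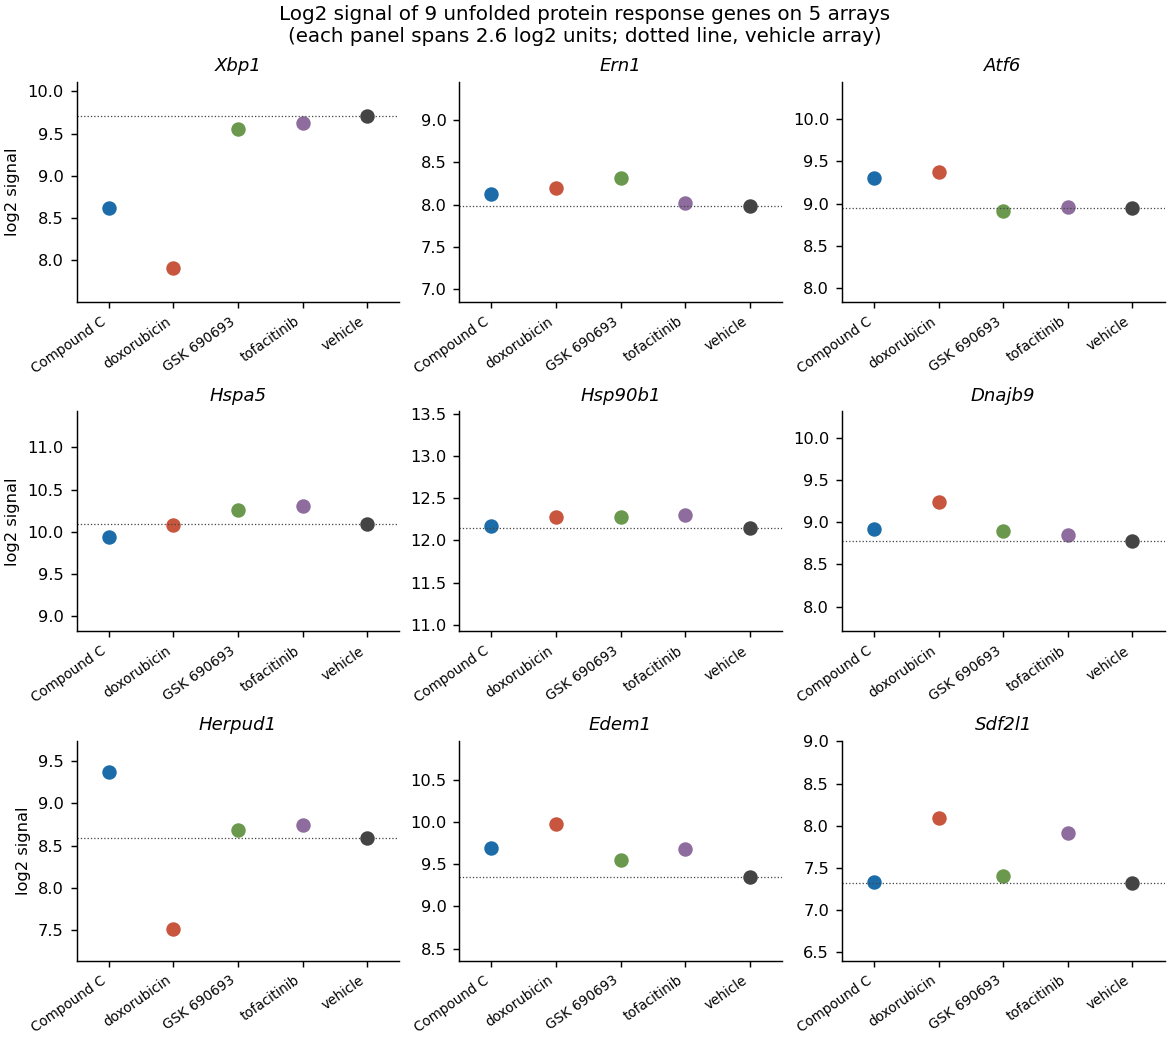
Log2 signal of the 9 genes on the 5 arrays, with 1 point per array, the compounds to the left of vehicle and a dotted line at the vehicle value. Xbp1 is low on the Compound C and doxorubicin arrays, at 8.62 and 7.91 against 9.71 with vehicle, Herpud1 is high with Compound C (9.37) and low with doxorubicin (7.51) against 8.59 with vehicle, and Hsp90b1 spans 0.15.

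The major luminal chaperones differed little between arrays. Hspa5 encodes BiP, the Hsp70 of the ER that also holds the sensors inactive. It read 9.94 with Compound C, 10.08 with doxorubicin, 10.26 with GSK 690693, 10.31 with tofacitinib and 10.09 with vehicle, so the Compound C array was lowest and the tofacitinib array highest. Hsp90b1, which encodes the Hsp90 of the ER known as GRP94, read 12.17 with Compound C, 12.27 with doxorubicin and GSK 690693, 12.30 with tofacitinib and 12.15 with vehicle. Its range of 0.15 over the 5 arrays was among the narrowest, since 98.81% of tested genes spanned at least as much, and the median range was 0.64. Its signals lay near the top of the deposited scale, which ended at 13.18, so whether its probes could still register more RNA is unknown. The range of Hspa5 was 0.37, and 83.46% of tested genes spanned at least as much.

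The cochaperones differed more, and mostly with doxorubicin. Dnajb9 encodes ERdj4, a J-domain partner of BiP that also represses IRE1. It read 8.92 with Compound C, 9.24 with doxorubicin, 8.89 with GSK 690693, 8.85 with tofacitinib and 8.78 with vehicle, and its doxorubicin difference of 0.46 stayed under 1.5-fold. Sdf2l1, which encodes a luminal protein that works with BiP and the J-domain protein ERdj3, read 7.34 with Compound C, 8.09 with doxorubicin, 7.40 with GSK 690693, 7.92 with tofacitinib and 7.32 with vehicle. The doxorubicin and tofacitinib arrays were the high ones, and the 3 others lay within 0.08. The difference was 0.77 with doxorubicin, which 5.03% of tested genes matched or passed, and 0.60 with tofacitinib, which 2.45% did. The tofacitinib value lies just past 1.5-fold, and after median centring of the arrays it falls short of it, at 0.43.

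Of the genes for ER-associated degradation, by which misfolded proteins are sent to the proteasome, Herpud1 stood on opposite sides of vehicle with Compound C and doxorubicin. Herpud1 encodes a membrane scaffold of the ligase complex. Its log2 signal was 9.37 with Compound C, 7.51 with doxorubicin, 8.69 with GSK 690693, 8.74 with tofacitinib and 8.59 with vehicle, so Compound C stood above and doxorubicin below the other 3, which lay within 0.15. The difference was 0.78 with Compound C, a ratio of 1.72 to vehicle that 2.87% of tested genes matched or passed. With doxorubicin it was −1.08, vehicle being 2.11-fold brighter, and 5.5% of tested genes lay at or below that. Between these 2 arrays the difference, doxorubicin minus Compound C, was −1.86, the widest range of the 9 genes, at or below which 1.74% of tested genes lay.

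Edem1, which encodes a lectin-like protein that hands misfolded glycoproteins on for degradation, read 9.69 with Compound C, 9.97 with doxorubicin, 9.55 with GSK 690693, 9.68 with tofacitinib and 9.35 with vehicle. All 4 compound arrays stood above vehicle, and doxorubicin most, by 0.62. Vehicle, which all 4 comparisons share, was the lowest array for this gene. Against the median of the other 4 arrays, Edem1 differed by 0.07 with Compound C and 0.36 with doxorubicin. On that base it differed by −0.13 with GSK 690693 and 0.06 with tofacitinib. The second Edem1 probe set was dim, between 4.63 and 4.84 on the 5 arrays and below the filter. It differed from vehicle by 0.13 with doxorubicin and by 0.08 or less with the others. The mean of both Edem1 probe sets differed by 0.38 with doxorubicin, which is under 1.5-fold.

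**Figure D2:**
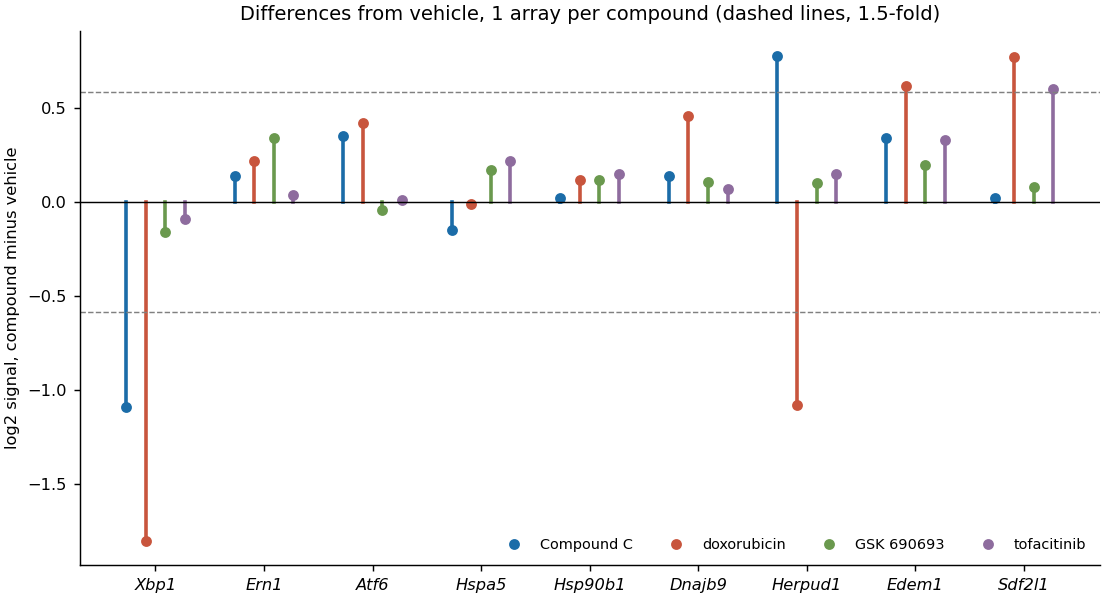
Log2 difference from vehicle for each of the 9 genes, with 1 stem per compound and dashed lines at 1.5-fold. Past the lines lie Xbp1 with Compound C (−1.09) and doxorubicin (−1.80), Herpud1 with Compound C (0.78) and doxorubicin (−1.08), Edem1 with doxorubicin (0.62), and Sdf2l1 with doxorubicin (0.77) and tofacitinib (0.60).

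Counted over the 9 genes, Compound C had 1 at least 1.5-fold higher, Herpud1, where 6.06% of all tested genes were, and 1 at least 1.5-fold lower, Xbp1, where 9.99% were. Doxorubicin had 2 higher, Sdf2l1 and Edem1, where 11.5% of tested genes were, and 2 lower, Xbp1 and Herpud1, where 14.2% were. GSK 690693 had 0 higher and 0 lower, beside 2.4% and 3.21% of tested genes. Tofacitinib had 1 higher, Sdf2l1, beside 2.66%, and 0 lower, beside 2.0%. A share of 1 in 9 is 11.1% and of 2 in 9 is 22.2%, so these counts rest on too few genes to set the group apart from the array as a whole.

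At a threshold of 2-fold, Xbp1 was the only gene of the 9 left with Compound C, where 2.52% of tested genes were lower and 1.3% higher. Xbp1 and Herpud1 were left with doxorubicin, where 6.45% were lower and 1.33% higher. No gene of the 9 was left with GSK 690693, where 0.601% of tested genes were lower and 0.187% higher, or with tofacitinib, where 0.414% were lower and 0.0487% higher. The median difference of the 9 genes was 0.14 for Compound C, where all tested genes had −0.02, and 0.22 for doxorubicin, where they had 0.05. It was 0.11 for GSK 690693 beside 0.04 and 0.15 for tofacitinib beside 0.09. With a stricter filter at the 75th percentile, the doxorubicin median of all genes left was 0.12. Median centring, which shifts all genes of an array alike, took the tofacitinib value to −0.02 and that of all tested genes to −0.08.

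**Figure D3:**
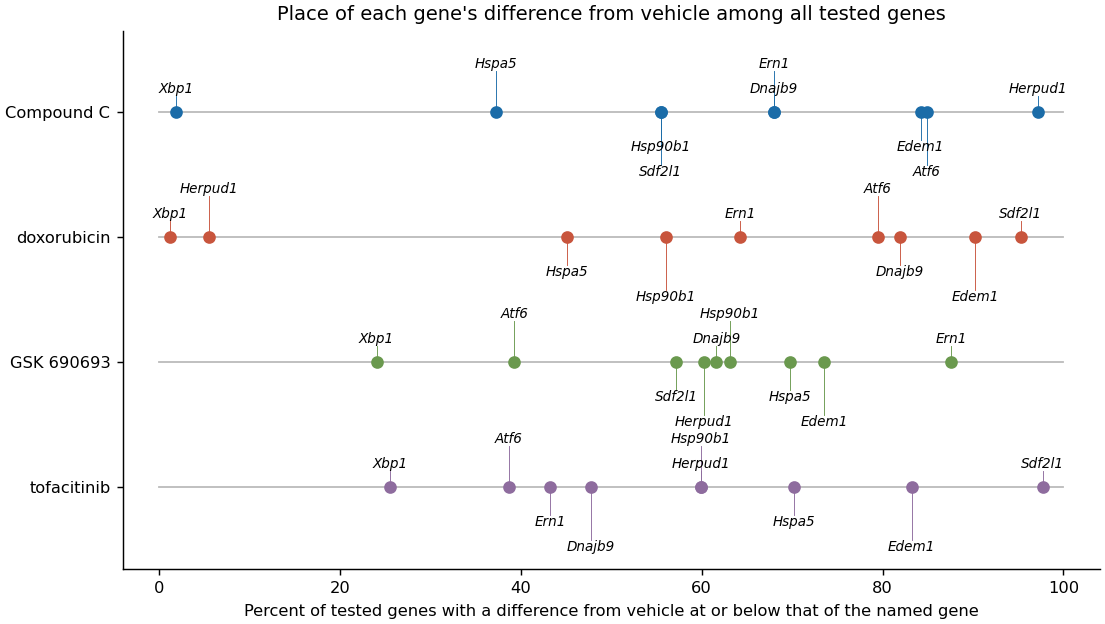
Place of each of the 9 genes among the 12317 tested genes for each compound, as the percent of tested genes whose difference from vehicle is at or below that of the named gene. Xbp1 lies at 1.89% with Compound C and 1.17% with doxorubicin, Herpud1 at 97.22% with Compound C and 5.5% with doxorubicin, and with GSK 690693 all 9 genes lie between 24.03% and 87.59%.

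The arrays were also compared with each other without vehicle. For doxorubicin against Compound C, 1 of the 9 genes was at least 1.5-fold higher, Sdf2l1 by 0.75, and 2 were lower, Herpud1 (−1.86) and Xbp1 (−0.71), beside 15.4% and 14.9% of tested genes. For GSK 690693 against Compound C, which both inhibit AMPK, Xbp1 was higher by 0.93 and Herpud1 differed by −0.68, beside 11.2% higher and 5.18% lower among tested genes. Ern1, Atf6 and the 5 other genes lay within 1.5-fold between these arrays. For tofacitinib against GSK 690693, the closest pair of arrays, 0 of the 9 genes were past 1.5-fold in either direction, beside 2.31% higher and 1.14% lower, and the largest difference was 0.52 in Sdf2l1.

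The genes around the sensors were described from a wider list of 15, of which 12 passed the filter. Eif2ak3, the gene of the sensor PERK, read 7.95 with Compound C, 6.06 with doxorubicin, 7.28 with GSK 690693, 7.41 with tofacitinib and 7.11 with vehicle. Like Herpud1 it was highest with Compound C (0.84) and lowest with doxorubicin (−1.05). With doxorubicin the genes of the Golgi proteases that cut ATF6 read higher, Mbtps1 by 0.83 and Mbtps2 by 0.77, as did Atf6b, the relative of Atf6, by 0.76. Traf2, whose product binds activated IRE1, differed by −1.16 with doxorubicin and 0.66 with tofacitinib.

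Genes of other membrane-bound factors that are cut in the Golgi like ATF6 read lower with Compound C, with differences of −1.03 for Creb3, −1.01 for Creb3l2 and −0.64 for Creb3l1. Creb3l1, which acts on collagen genes, read 9.57 with Compound C, 10.00 with doxorubicin, 9.09 with GSK 690693, 9.33 with tofacitinib and 10.21 with vehicle. It was highest on the vehicle array, which all 4 comparisons share, and its differences were −1.12 with GSK 690693 and −0.88 with tofacitinib. Of the 12 genes, Compound C had 1 higher at 1.5-fold (8.3%, beside 6.06% of all tested genes) and 3 lower (25.0%, beside 9.99%). Doxorubicin had 3 higher (25.0%, beside 11.5%) and 2 lower (16.7%, beside 14.2%). GSK 690693 had 0 higher (beside 2.4%) and 1 lower (8.3%, beside 3.21%), and tofacitinib had 1 higher (8.3%, beside 2.66%) and 1 lower (8.3%, beside 2.0%). Their median was −0.14 for Compound C and 0.09 for doxorubicin, and it was 0.17 for GSK 690693 and 0.22 for tofacitinib.

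Of 25 tested genes of the ER folding machinery, 24 read above vehicle with doxorubicin, where 55.83% of all tested genes were at or above −0.01. The median of the 25 was 0.42, beside 0.05 over all tested genes. Over the 6849 brighter genes left by a filter at the 75th percentile, the doxorubicin median was 0.12. At 1.5-fold, 4 were higher (16.0%, beside 11.5% of all tested genes) and 1 lower (4.0%, beside 14.2%). The prolyl isomerase gene Fkbp2 (0.97), the BiP nucleotide exchange factor gene Sil1 (0.93) and the disulfide isomerase gene Txndc5 (0.61) led, and Txndc11 was lower (−0.66). The folding genes had medians of 0.05 with Compound C, 0.09 with GSK 690693 and 0.17 with tofacitinib, and 0 of 25 were past 1.5-fold with any of these. As with Hspa5 and Hsp90b1, the lectin chaperone genes stayed near vehicle on every array, Calr between 0.03 and 0.08 and Canx between 0.02 and 0.10. Calr signals of 12.15 to 12.23 and Canx signals of 11.85 to 11.95 also lay near the top of the scale. Whether their probes could register more RNA is unknown, as for Hsp90b1. Ero1a, the oxidase that recharges disulfide isomerases, differed by 0.54 with Compound C and 0.56 with doxorubicin on its brighter probe set and by 0.68 and 0.82 on its other.

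Of 20 tested genes for ER-associated degradation other than Herpud1 and Edem1, 5 were at least 1.5-fold higher with doxorubicin (25.0%, beside 11.5% of all tested genes) and 1 lower (5.0%, beside 14.2%), and the median was 0.37. The ER mannosidase gene Man1b1 (0.81), Selenos (0.78) and the lectin gene Os9 (0.67) were highest. Syvn1, which encodes the ubiquitin ligase HRD1 that Herpud1 protein binds, was the lower one at −1.44. Syvn1 read 8.21 with Compound C, 7.49 with doxorubicin, 8.60 with GSK 690693, 8.82 with tofacitinib and 8.93 with vehicle, the same order of arrays as Xbp1. The share of all tested genes with that order was not counted. With Compound C the list had 1 higher, Man1b1 at 0.59 (5.0%, beside 6.06%), 2 lower, Faf2 at −0.94 and Syvn1 at −0.72 (10.0%, beside 9.99%) and a median of 0.06. With GSK 690693 and tofacitinib 0 were past 1.5-fold and both medians were 0.15, beside 0.04 and 0.09 over all tested genes.

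Of the 31 tested genes of translocation into the ER and export from it, 28 read above vehicle with doxorubicin. Among all tested genes, 55.83% were at or above −0.01 there. The median of the 31 was 0.25, beside 0.05 over all tested genes and 0.12 over the genes left by a filter at the 75th percentile. At 1.5-fold 3 were higher (9.7%, below the 11.5% of all tested genes) and 1 lower (3.2%, beside 14.2%). Sec61b (0.86) was dim and reached the filter only on that array, and Ssr4 (0.77) and the signal recognition particle gene Srp14 (0.64) were the other higher ones. Arfgap3, whose product acts on Golgi transport vesicles, differed by −0.86 with doxorubicin and −0.90 with Compound C, and the coat gene Sec24d by −0.65 with Compound C. The median was 0.00 with Compound C, 0.02 with GSK 690693 and 0.13 with tofacitinib, beside −0.02, 0.04 and 0.09 over all tested genes.

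**Figure D4:**
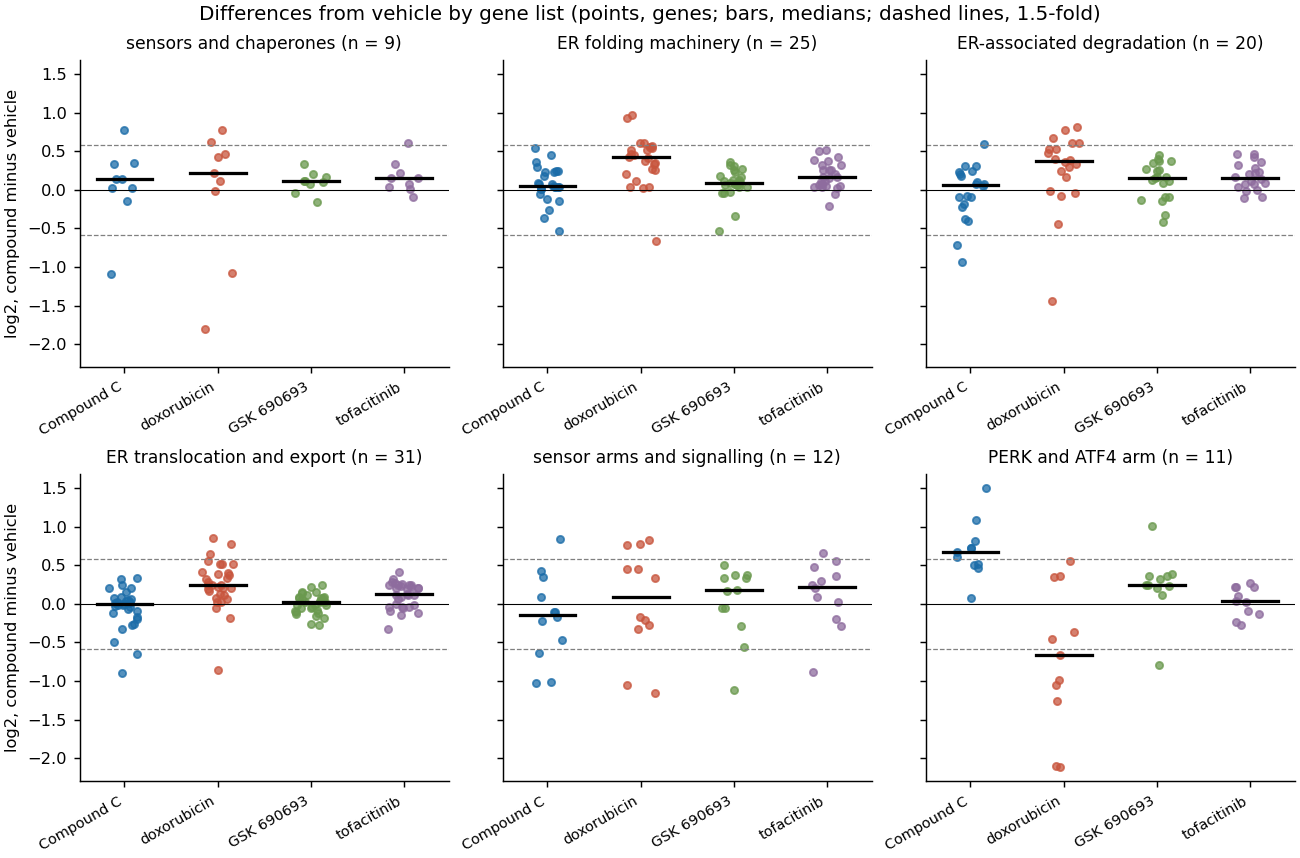
Log2 difference from vehicle of each tested gene, by gene list and compound, with 1 point per gene, bars at the medians and dashed lines at 1.5-fold. With doxorubicin the median is 0.42 for the folding genes and −0.66 for the PERK and ATF4 arm, and with Compound C it is 0.05 and 0.67 for the same lists.

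The PERK and ATF4 arm had its medians on opposite sides of vehicle with Compound C and doxorubicin, as Herpud1 did. Of its 11 genes, 7 were at least 1.5-fold higher with Compound C (63.6%, beside 6.06% of all tested genes) and 0 lower (beside 9.99%). All 11 read above vehicle, beside 45.64% of all tested genes at 0.02 or more, and the median of the 11 was 0.67. With doxorubicin 6 were lower (54.5%, beside 14.2%) and 0 higher (beside 11.5%), and the median was −0.66. Both comparisons use the same vehicle array. The list was chosen with earlier results of these data known, so these shares describe it and are not a test. Atf4 itself, the factor whose translation PERK favours, read 9.08 with Compound C, 6.73 with doxorubicin, 8.38 with GSK 690693, 8.21 with tofacitinib and 7.99 with vehicle.

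Genes of both phosphatase subunits that undo PERK's phosphorylation differed past 1.5-fold on both arrays. Ppp1r15a differed by 1.5 with Compound C and −0.66 with doxorubicin, and Ppp1r15b by 0.73 and −2.10. Cebpb, a partner of ATF4 at composite elements, differed by 0.81 with Compound C and −2.12 with doxorubicin. Not all members followed this order: Ddit3, the stress factor CHOP, was higher with both, by 0.73 with Compound C and 0.36 with doxorubicin, and so were Asns (0.51 and 0.35) and Nupr1 (0.46 and 0.56). With GSK 690693 the median was 0.25, with Chac1 higher (1.01) and Atf3 lower (−0.79), each 9.1% of the list beside 2.4% and 3.21%, and with tofacitinib it was 0.04 and 0 genes were past 1.5-fold.

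**Figure D5:**
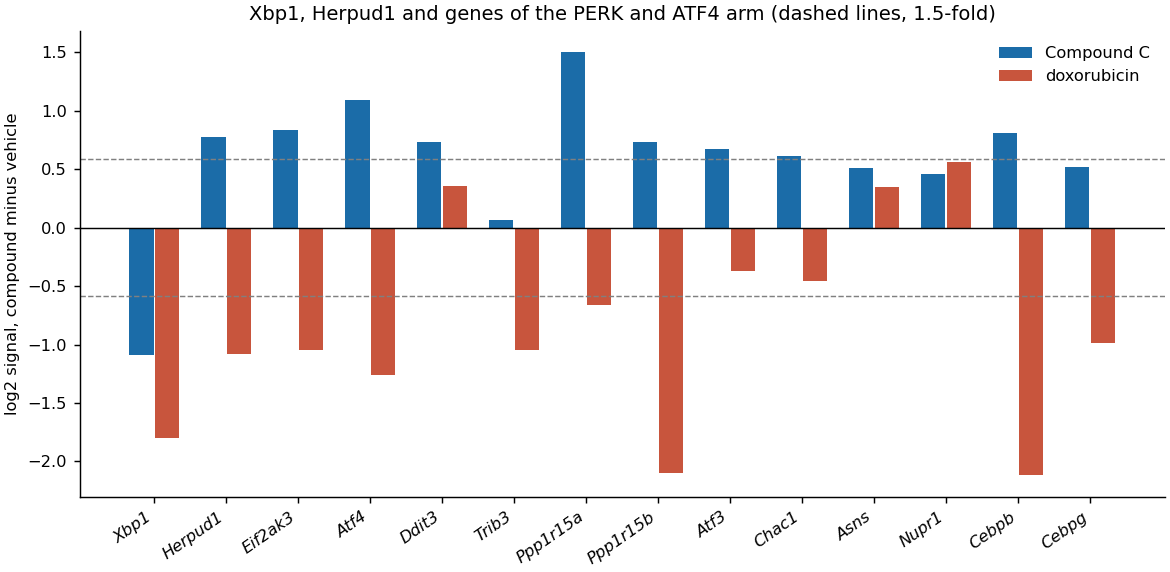
Log2 difference from vehicle with Compound C and doxorubicin for Xbp1, Herpud1, Eif2ak3 and the 11 genes of the PERK and ATF4 arm, as bars from 0 with dashed lines at 1.5-fold. Herpud1 (0.78 and −1.08), Eif2ak3 (0.84 and −1.05) and Atf4 (1.09 and −1.26) lie above vehicle with Compound C and below it with doxorubicin, whereas Xbp1 lies below vehicle with both (−1.09 and −1.80).

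The likeness of other genes to Herpud1, the gene with the widest range, was measured as the Euclidean distance between their 4 differences from vehicle, which share the vehicle array. The 5 nearest of the tested genes were Abtb2 at a distance of 0.165, Dcaf10 at 0.166, Khdc4 at 0.171, Eif2ak3 at 0.179 and Zfp507 at 0.199. Of these, Eif2ak3 belongs to the unfolded protein response. For Xbp1, a repeat of this step that was added after its values were seen gave Zfp691 at 0.114, Smarcad1 at 0.192, Nat2 at 0.242, Naif1 at 0.329 and the unnamed transcript 2700038G22Rik at 0.348, none of them on the lists described here.

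Transcripts that activated IRE1 is known to cut were listed as 6 genes, all of them tested. Their median was 0.02 for Compound C and 0.44 for doxorubicin, and it was −0.05 for GSK 690693 and 0.07 for tofacitinib. Bloc1s1, the best known of them, read 6.75 with Compound C, 7.09 with doxorubicin, 6.36 with GSK 690693, 6.50 with tofacitinib and 6.69 with vehicle. At 1.5-fold there were 2 genes in all. Pdgfrb was lower with Compound C, at −1.21 (16.7% of the list, beside 9.99% of all tested genes). The lysosomal gene Hgsnat was higher with doxorubicin, at 0.82 (16.7%, beside 11.5%). The 10 tested cytosolic heat shock genes had medians of 0.01 for Compound C, −0.03 for doxorubicin and 0.04 for both GSK 690693 and tofacitinib. Past 1.5-fold among them was Hsph1, higher with Compound C (0.74, 10.0% of the list, beside 6.06% of all tested genes). With doxorubicin Dnajb1 (−1.24) and Bag3 (−0.64) were lower (20.0%, beside 14.2%). Hspa1b was lower with GSK 690693 (−0.65, 10.0%, beside 3.21%), and the near-identical copy Hspa1a may share its signal. Hspa8 differed by 0.00 with tofacitinib and −0.30 with doxorubicin on its brightest probe set. Its dimmer ones differed by −0.58, −0.94 and −0.97 with tofacitinib and by −0.47, −0.56 and −0.60 with doxorubicin.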

How the data were processed

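Total RNA was labelled and hybridised to Affymetrix whole-transcript arrays, 300 ng per sample and 1 array per group, per the labels. For each probe set and array the authors deposited a log2 value, made with Affymetrix Expression Console 1.3.1.187 per the submitters' processing notes; no source used here states the summarisation or normalization, and the log base was inferred from values between 1.05 and 13.18. The number of arrays limits the precision, and dim signals may understate differences.

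Of 41345 probe sets, 23521 had 1 symbol in the platform annotation, 1814 had several and were named for none, and 16010 were not listed. A gene was represented by its probe set with the highest mean, and a gene was tested if any value reached its array's median over single-symbol probe sets (5.37 to 5.44). Differences are compound minus vehicle, counted at 1.5-fold. No test was possible with 1 array per group. The counting was tested on simulated data with pandas 2.3.3 and numpy 2.4.6 in Python 3.11.15.

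The members and lists were chosen with earlier results of these data known. Named are all members, up to 3 genes each way per list and compound past 1.5-fold, and the 5 genes nearest to the member of widest range. Calr, Canx, Ero1a, Bloc1s1, Ddit3, Asns, Nupr1, Hspa8, Hspa1a and the genes nearest to Xbp1 were named outside this rule, after their values were seen. Also outside it were the cell type markers not past 1.5-fold and the second Vim probe set. Alternatives changed the scaling, the probe set rule, the filter, the base array and the fold.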

Additional observations from a re-analysis of the deposited data

How the results depend on the processing

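Of 216 recomputed differences of the 9 genes, 208 moved by no more than 0.258, the standard deviation between the closest pair of arrays. The 8 others moved further, all where the other 4 arrays' median replaced vehicle, and 0 differences past 1.5-fold changed sign. Edem1 with each compound was among the 8. Many of the 216 were fixed in advance, so the 208 overstate how far the values were tested. The filter settings leave every value as it was. The probe set setting alters Edem1 alone, with doxorubicin from 0.62 to 0.38. Median centring adds 1 constant per array, always smaller than 0.258, and with tofacitinib it took Sdf2l1 from 0.60 to 0.43. Xbp1 and Herpud1 stayed past 1.5-fold with Compound C and doxorubicin under each scaling and base setting run. The probe set and filter settings left the values of Xbp1 and Herpud1 unchanged by design, since each of these genes has 1 probe set and a filter alters no value. The median difference of the 9 genes moved by more than 0.1 or changed sign with 2 settings and by 0.1 or less with the others: with tofacitinib it was −0.02 after median centring, and with Compound C 0.01 against the median of the other 4 arrays. Centring moves all genes of an array alike, and it took the tofacitinib median of all tested genes from 0.09 to −0.08 and those of ER-associated degradation to −0.02 and of translocation and export to −0.04, so their distance from the array as a whole stayed as it was. The count of higher genes with doxorubicin was 1 after quantile normalization, with the mean of all probe sets, or against the other 4 arrays, and 0 at 2-fold. With tofacitinib it was 0 after centring, after quantile normalization, against the other 4 arrays and at 2-fold, and with Compound C it was 0 at 2-fold. The cause of these shifts was not tested. No paired analysis was possible because each group holds 1 array. Signal over background was not analysed here, so dim values carry an unknown limit.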
